A study of Mus musculus with 44 samples.

Results

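RGFP966, an inhibitor with selectivity for the histone deacetylase HDAC3, was given to mouse bone marrow-derived macrophages (BMDMs) before and during stimulation with KLA. Its effect was read in 6 RNA-seq libraries of the 44 in the series. The 3 groups of 2 libraries were RGFP966_KLA, KLA and vehicle (Veh), and every gene in their count table was used, so that 24940 genes were listed and 12196 passed the filter on low counts. The inhibitor effect is the difference of RGFP966_KLA from KLA, and Veh gives the resting level.

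All 3 groups were wild-type BMDMs, which are macrophages grown from bone marrow precursors, here of C57BL/6 mice aged 8 to 12 weeks, in medium containing M-CSF, and collected after 6 h of KLA or vehicle. KLA is Kdo2 lipid A, the active part of bacterial lipopolysaccharide. By the study's methods RGFP966 was added when serum was lowered, 12 h before KLA. Exposure to the inhibitor thus began well before the 6 h of KLA. The labels do not say whether the Veh and KLA libraries received the inhibitor's solvent, and no library received RGFP966 without KLA, so an effect on resting expression and an effect on the response to KLA cannot be told apart. The labels do not say either whether replicates came from separate mice or cultures, so that p-values measure only the spread between these libraries, which may be technical. RGFP966_KLA replicate 2 carries a date stamp 14 days after the stamp of the other 5 libraries in the file headers, and the sources do not say what the stamp dates.

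HDAC3 removes acetyl groups from histones and other proteins and works as the enzyme of corepressor complexes such as those built on NCoR (Ncor1). In unstimulated macrophages these complexes sit at targets of nuclear receptors and of inflammatory transcription factors and hold transcription down. KLA binds TLR4, which signals through the adaptor MyD88 to NFκB and AP-1 and through TRIF, TBK1 and IRF3 to interferon β, whose receptor then switches on interferon-stimulated genes.

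The libraries held 12.7 to 16.0 M counts in genes, and 3 counts, taken as the least that could be told from 0, corresponded to 0.187 to 0.237 CPM, which is the count of a gene per 1 M counts of its library. Replicates correlated with r of 0.991 to 0.994 across genes, which are not independent replicates. CPM values below are scaled by the TMM method within this table, and ± gives the standard error (SE) of a log2 fold change. Genes were called where edgeR's quasi-likelihood test gave an adjusted p below 0.05 and the fold change exceeded 1.5. The median log2 fold change over all tested genes was 0.026. A separate pair of KLA libraries with DMSO (DMSO_KLA) served as another control for RGFP966_KLA. They come from the table of the TBK1 inhibitor samples and carry a later date stamp. Where a named gene could be tested with it, this control's result is given beside the RGFP966 effect under 1 condition. It had to change the call, the direction or the value by more than 1.5 times. Fst, Wnk2, Fut7, Hdac7, Pprc1, Cd163 and Klrb1c had no result with this control, so for them its absence does not mean agreement.

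Of the 12196 genes tested, 1933 were called higher with RGFP966 (15.8%) and 1164 lower (9.54%), so that 62.4% of the calls were higher. Counts of called genes in the gene lists below are to be read beside these shares of all genes. Some list counts are repeated for genes averaging at least 5 CPM or against DMSO_KLA. List members can then go untested, and the number left is not given. A smaller count there need not mean a lost effect. DESeq2 called 1344 higher and 1249 lower (51.8% higher), and against the DMSO_KLA libraries 1605 were higher and 1646 lower (49.4% higher). At a fold change above 2 the counts were 1081 and 457. Without RGFP966_KLA replicate 2, the library with the later stamp, 3095 of the 3097 original calls were tested and pointed the same way. The calls had been chosen with RGFP966_KLA replicate 1 and the same KLA libraries. That agreement was thus largely fixed in advance and cannot show what the later stamp changed. Against DMSO_KLA, 2928 of the 3097 were tested, 2693 of them (92%) pointed the same way and 1682 were called again, so that the choice of KLA control matters for single genes. For comparison, KLA itself raised 3399 genes (27.9%) and lowered 3924 (32.2%) relative to Veh. RGFP966_KLA differed from Veh at 3416 genes called higher (28%) and 3209 lower (26.3%). These 3 comparisons share libraries pairwise, so no overlap between them was drawn.

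**Figure D1:**
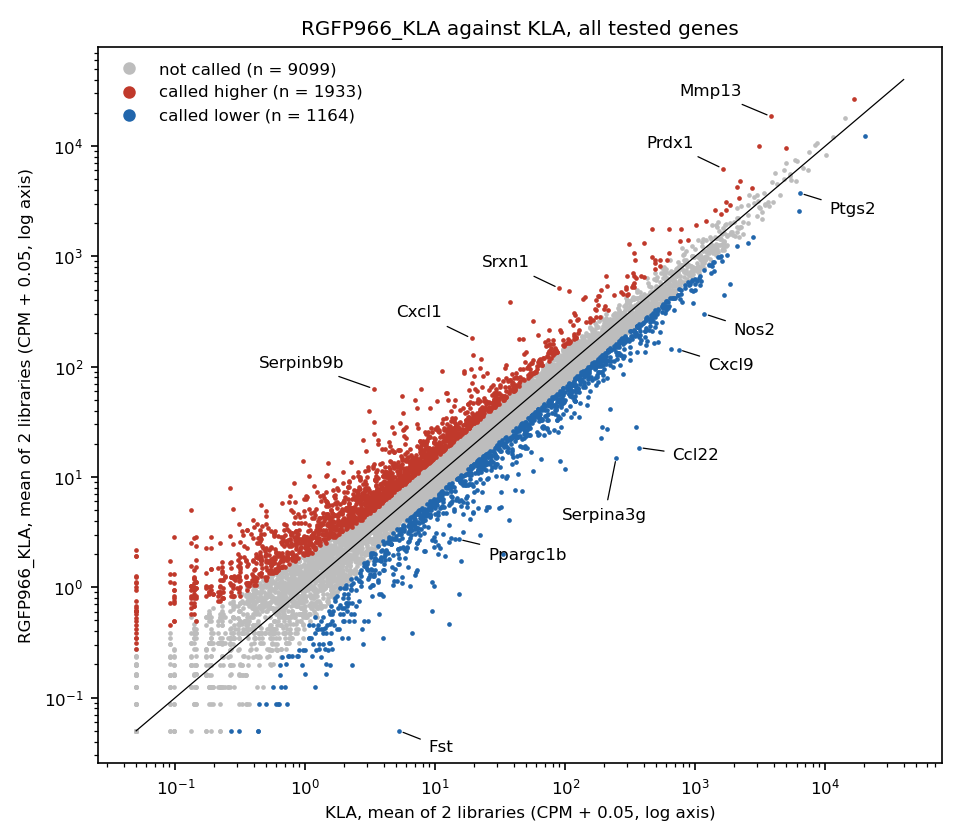
Mean CPM of each tested gene in the 2 KLA libraries (x axis, log scale) and the 2 RGFP966_KLA libraries (y axis, log scale), with 0.05 CPM added for display. Red points are the 1933 genes called higher, blue points the 1164 called lower, and the line marks equal levels. Ccl22, Serpina3g and Fst lie far below the line, and Serpinb9b, Cxcl1, Srxn1, Prdx1 and Mmp13 above it.

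To ask whether the inhibitor changed KLA-responsive genes in particular, the KLA response was taken from libraries that share nothing with this table, DMSO_KLA against DMSO_Veh. Among the 11932 genes tested in both tables, 15.7% were called higher and 9.62% lower with RGFP966. Of the 3580 genes that KLA induced there, 666 were called lower with RGFP966 (18.6%) and 231 higher (6.45%), with a median of -0.19. Of the 3515 genes that KLA lowered there, 1127 were called higher (32.1%) and 213 lower (6.06%), with a median of 0.41. The 4837 genes uncalled for KLA had 520 higher (10.8%), 269 lower (5.56%) and a median of 0.025. The share called lower among KLA-induced genes thus exceeded the 9.62% of all genes, and the share called higher among KLA-lowered genes exceeded the 15.7%. The sets were not matched for level with KLA. A gene with hardly any counts in KLA could be called only higher, and an abundant one is more easily called lower. How much of these shares follows from level was not tested.

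The share called lower was greater with the size of the KLA response in the DMSO libraries. It was 7.36% of 3694 genes at a KLA log2 fold change of 0 to 1, 16.5% of 1251 at 1 to 2, 24.9% of 490 at 2 to 3, 31.8% of 220 at 4 to 6 and 42.7% of 185 above 6. The share called higher was 37.3% of 612 genes at -3 to -2 and 6.77% at 0 to 1. Above 6, 20 of the 185 genes were called higher (10.8%). The bins were not matched for level with KLA either, so their gradient may follow in part from level, which was not tested.

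**Figure D2:**
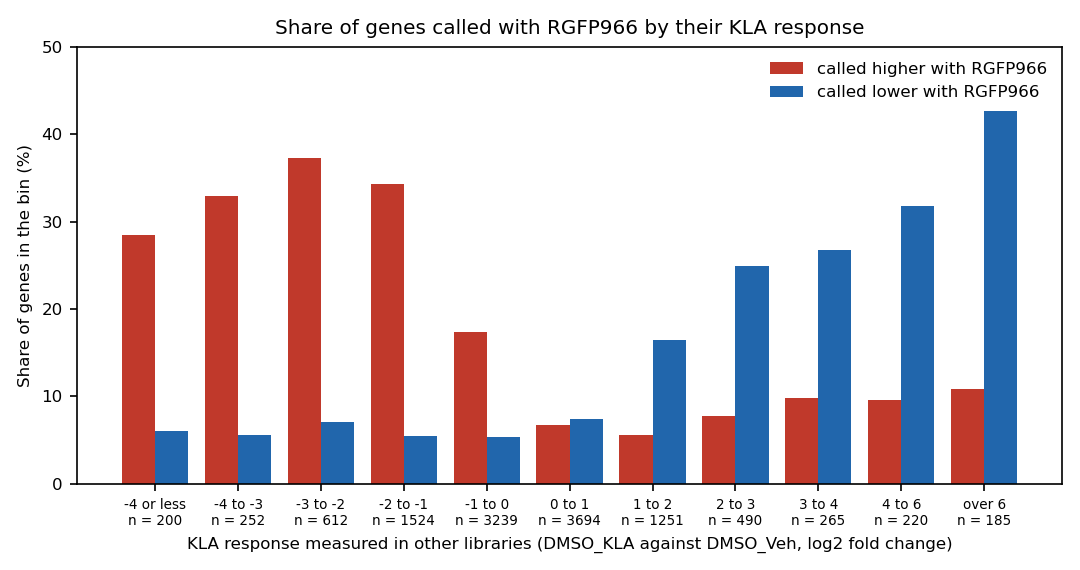
Percent of genes called higher (red bars) and lower (blue bars) with RGFP966 in each bin of the KLA response, which was measured as the log2 fold change of DMSO_KLA against DMSO_Veh in libraries not used for the inhibitor effect, with the number of genes under each bin. The share called lower climbs from 7.36% at 0 to 1 to 42.7% above 6, and the share called higher is 28.5% to 37.3% in the 4 bins below -1.

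Neither class was returned in full to its resting level. Of the 666 KLA-induced genes called lower with RGFP966, 451 (67.7%) were still called higher than Veh, 199 (29.9%) were not called against Veh and 16 (2.4%) were called lower. Of the 1127 KLA-lowered genes called higher, 556 (49.3%) were still called lower than Veh, 513 (45.5%) were not called and 58 (5.15%) were called higher. The genes were selected with the same RGFP966_KLA libraries that are compared with Veh here, so these counts are a description without a test.

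Ptgs2, Cp and Il12a are KLA-induced genes that the study follows through its experiments. Ptgs2 (chr1:150100031-150108234 in mm10), which encodes cyclooxygenase 2, stood at 1.45 and 2.11 CPM in the Veh libraries, 6003 and 6793 with KLA and 3768 and 3704 with RGFP966 and KLA. The inhibitor libraries lay below both KLA libraries, with a log2 fold change of -0.78 ± 0.055 (adjusted p = 1.8e-21), and remained far above Veh. Il12a (chr3:68691424-68698550), the p35 subunit of interleukin 12, had no count in Veh, 51.6 and 55.9 CPM with KLA and 31.8 and 33.8 with the inhibitor, a log2 fold change of -0.71 ± 0.094 (adjusted p = 4.8e-10). Cp (chr3:19957054-19992998), the ferroxidase ceruloplasmin, stood at 5.11 and 4.27 CPM in Veh, 898 and 972 with KLA and 624 and 681 with the inhibitor. Its log2 fold change of -0.52 ± 0.057 was below the fold threshold in edgeR, passed it in DESeq2 at -0.59, and turned to 0.95 (adjusted p = 1.6e-31) against the DMSO_KLA libraries. Ptgs2 and Il12a kept their call against DMSO_KLA, at -0.65 and -0.72.

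**Figure D3:**
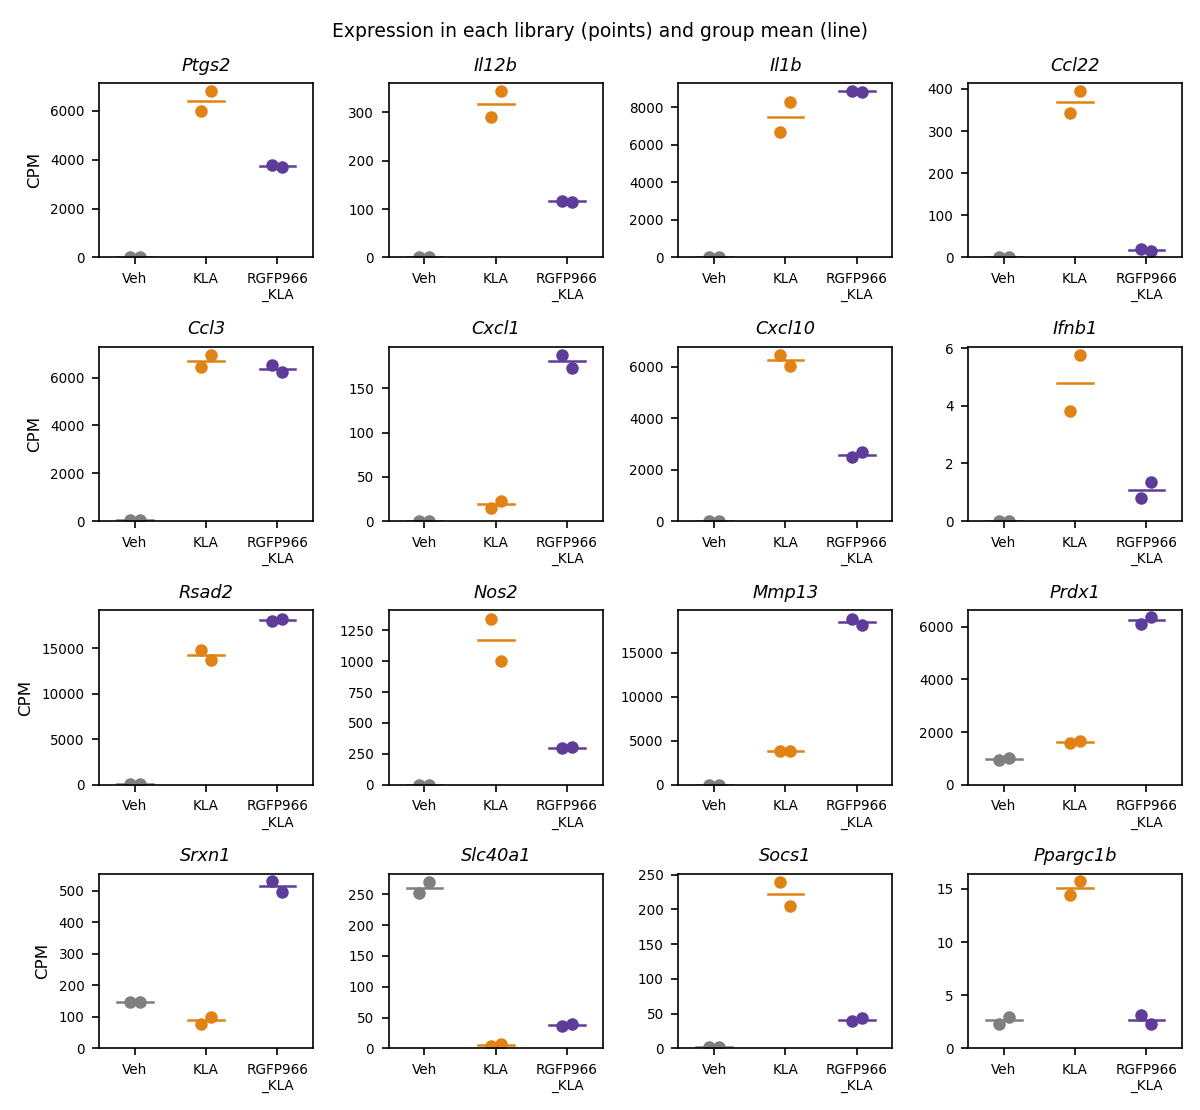
CPM of 16 genes in each library (points) and the mean of each group (lines) for Veh (gray), KLA (orange) and RGFP966_KLA (purple), each panel with its own linear axis from 0. Ptgs2, Il12b, Ccl22, Cxcl10, Ifnb1, Nos2, Socs1 and Ppargc1b are lower in both RGFP966_KLA libraries than in both KLA libraries, Cxcl1, Mmp13, Prdx1, Srxn1 and Slc40a1 are higher, Il1b and Rsad2 are higher but were not called, and Ccl3 overlaps.

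The transcripts of the inhibited enzyme and of its complex were mostly not called. Hdac3 itself stood at 28.3 and 31.97 CPM with KLA and 29.6 and 30.2 with the inhibitor (log2 -0.015 ± 0.1, 0.19 with the DMSO_KLA control), values that overlap. An inhibitor of enzyme activity need not change its target's mRNA, so these libraries hold no direct check that HDAC3 was inhibited. Of the 6 tested genes of the NCoR-HDAC3 corepressor complexes, 1 was called higher and none lower, with a median of 0.0077 beside 0.026 over all genes. Ncor1, the scaffold, was not called at -0.21 ± 0.062, 0.033 with the DMSO_KLA control. The gene called was Tbl1xr1, whose product helps to exchange corepressors for coactivators. It fell with KLA from 118 and 117 CPM in Veh to 48.7 and 51.4, and stood at 136 and 138 with RGFP966, above both Veh libraries (log2 1.45 ± 0.072 against KLA, adjusted p = 1.9e-30).

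Of 10 other histone deacetylases tested, 3 were called higher and 1 lower. Hdac9, a class IIa enzyme, went from 10.99 and 7.83 CPM with KLA to 2.51 and 2.78 (log2 -1.82 ± 0.22). Hdac7, of the same class, went from 6.98 and 8.65 to 19.02 and 15.5 (log2 1.13 ± 0.15). The other 2 called, Hdac5 and Hdac6, were higher by 0.62 ± 0.17 and 0.69 ± 0.24, but stood at -0.17 and -0.072 against DMSO_KLA. Both lost their call in DESeq2 and without KLA replicate 2, at 0.46 and 0.44, and Hdac5 without RGFP966_KLA replicate 2, at 0.48. None of 9 histone acetyltransferases was called in edgeR.

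Ppargc1b, which encodes the coactivator PGC1β, a partner of the estrogen-related receptors in mitochondrial gene expression, was the called member of its family. It stood at 2.297 and 2.98 CPM in Veh, rose with KLA to 14.4 and 15.7, and was 3.095 and 2.25 with RGFP966, with 1 library just above and 1 just below the Veh range (log2 -2.49 ± 0.21 against KLA, adjusted p = 7.9e-18). Esrra, encoding the receptor ERRα, was 64.1 and 68.98 CPM with KLA and 63.2 and 66.5 with the inhibitor, values that overlap. Pprc1, the third coactivator of the family, had a log2 fold change of -0.40 and was not called. Ppargc1a did not pass the filter.

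Among 21 tested genes of the TLR4 pathway, 1 was called higher and 1 lower, with a median of -0.12. Tlr4 itself was 118 and 124 CPM with KLA and 124 and 123 with the inhibitor (log2 0.03 ± 0.065). Cd14, the coreceptor, was not called at 0.094 ± 0.054, and was called lower at -0.62 against DMSO_KLA. Myd88, the adaptor of the NFκB branch, was called lower. It went from 60.6 and 53.3 CPM in Veh to 458 and 440.1 with KLA and 229 and 242 with RGFP966 (log2 -0.93 ± 0.059, adjusted p = 4.5e-24). Mapk14, encoding p38α, was called higher, from 75.04 and 77.5 to 162 and 159 CPM (log2 1.07 ± 0.067), although against DMSO_KLA the difference of 0.43 was below the fold threshold.

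Calls among NFκB subunits were all in 1 direction. Of 5 NFκB subunits, 2 were called lower and none higher, with a median of -0.36, and 4 were called lower against DMSO_KLA. Relb was 156 and 143 CPM with KLA and 73.3 and 80.2 with the inhibitor (log2 -0.96 ± 0.071). Nfkb1, the gene of p105 and p50, was 963 and 922 CPM with KLA and 608 and 586 with RGFP966 (log2 -0.66 ± 0.055). Nfkb2, at -0.36, was not called here and was called lower at -0.78 against DMSO_KLA. Of 19 feedback regulators, 5 were called lower and 1 higher (median -0.31).

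Socs1, the inhibitor of cytokine receptor signaling, had the greatest decline of the feedback list. It rose from 1.36 and 1.28 CPM in Veh to 239 and 205 with KLA and was 39.4 and 43.4 with RGFP966 (log2 -2.42 ± 0.075, adjusted p = 8.1e-44). Dusp1, a phosphatase that ends MAP kinase signals, was 456 and 397 CPM with KLA and 159 and 180.0 with RGFP966 (log2 -1.33 ± 0.063), but -0.29 and not called against DMSO_KLA. Dusp5, of the same family, was 5.35 and 4.29 CPM with KLA and 1.25 and 1.58 with RGFP966 (log2 -1.76 ± 0.31). Dusp4, another phosphatase of this kind, went the other way, from 18.2 and 21.8 to 84.8 and 80.6 CPM (log2 2.04 ± 0.093, 1.12 with the DMSO_KLA control). Tnfaip3, which encodes the ubiquitin-editing enzyme A20, was not called at -0.19 ± 0.054, 0.14 with the DMSO_KLA control. Of 10 AP-1 subunits tested, Batf and Batf2 were called lower, at -0.87 ± 0.086 and -0.87 ± 0.067, and none higher, with 6 called lower against DMSO_KLA.

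The inflammatory cytokines split. Of 22 tested, 5 were called lower and 2 higher, with a median of -0.29, and against DMSO_KLA 13 were called lower and 4 higher. Colony-stimulating factors moved apart. Csf3, the granulocyte factor G-CSF, was 2.01 and 2.14 CPM with KLA and 0.516 and 0.075 with RGFP966 (log2 -2.77 ± 0.6, -4.17 with the DMSO_KLA control), and Csf2, the granulocyte-macrophage factor GM-CSF, was 0.287 and 0.412 with KLA and 0.811 and 1.43 with RGFP966 (log2 1.64 ± 0.67). The call of Csf2 was lost in DESeq2 and without any 1 of the Veh or KLA libraries, at 1.42 to 1.92, and against DMSO_KLA it was -2.61.

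Both subunits of interleukin 12, Il12a (given above) and Il12b, and the p28 subunit of interleukin 27 were called lower. Il12b, encoding p40, was 291 and 343 CPM with KLA and 117 and 114 with the inhibitor (log2 -1.45 ± 0.065, adjusted p = 2.7e-33), and -2.91 against DMSO_KLA. Il27, the p28 subunit of interleukin 27, was 416 and 398 CPM with KLA and 193 and 177 with RGFP966 (log2 -1.14 ± 0.059), whereas its partner subunit Ebi3 was not called at -0.42 ± 0.057, -0.67 and called with the DMSO_KLA control.

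Il1b and its antagonist were not called. Il1b was 6653 and 8245 CPM with KLA and 8838 and 8820.2 with RGFP966, and was not called (log2 0.25 ± 0.062, -0.12 with the DMSO_KLA control). Its natural antagonist Il1rn was 3273 and 2941 CPM with KLA and 2660.1 and 2881 with RGFP966 (log2 -0.17 ± 0.055), and was higher by 1.02 against DMSO_KLA. Tnf and Il6, named after their values were seen, were not called, Tnf at 0.48 here and -0.0087 with the DMSO_KLA control and Il6 at -0.38 ± 0.058. Both stayed far above Veh, Tnf at 3723 and 3467 CPM with the inhibitor beside 15.99 and 15.3 in Veh, and Il6 at 597 and 580.4 beside 0.141 and 0.257.

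Of 12 CC chemokines tested, 7 were called lower and 2 higher, and the list had the lowest median among lists with 5 or more tested genes, -1.07, with 4 called lower when only genes averaging at least 5 CPM were tested. Ccl22, a ligand of CCR4 made by activated macrophages and dendritic cells, was 0.375 and 0.206 CPM in Veh, 343 and 394 with KLA and 20.7 and 16.1 with RGFP966 (log2 -4.32 ± 0.084, -5.80 with the DMSO_KLA control, adjusted p = 3.4e-56). Ccl12, a ligand of CCR2, was 93.9 and 86.6 with KLA and 14.2 and 13.7 with the inhibitor (log2 -2.69 ± 0.1). Ccl8 was 14.9 and 10.5 CPM with KLA and 0.147 and 0.675 with RGFP966 (log2 -4.92 ± 0.35, -4.02 with the DMSO_KLA control), beside 0.0469 and 0 in Veh. Ccl24, an eosinophil attractant, was 2.87 and 1.57 CPM with KLA and 0.295 and 0 with RGFP966 (log2 -3.80 ± 0.69, -5.53 with the DMSO_KLA control).

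Ccl3 and Ccl5 were not among them. Ccl3 was 6431 and 6956 CPM with KLA and 6525 and 6230.1 with RGFP966 (log2 -0.07 ± 0.054, 0.21 with the DMSO_KLA control), and Ccl5 was 5389 and 5251 CPM with KLA and 5353 and 5353 with RGFP966 (log2 0.009 ± 0.052). For both, the libraries of the 2 groups overlapped. The 2 called higher, named here after their values were seen, were Ccl6, from 177 and 184 to 426 and 449 CPM (log2 1.28 ± 0.06, 2.61 with the DMSO_KLA control), and Ccl9, from 4796 and 5200.5 to 9231 and 9820.5 (log2 0.93 ± 0.054, 1.93 with the DMSO_KLA control).

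The CXC chemokines divided by receptor. Of 8 tested, 3 were called higher and 3 lower, with a median of -0.23. The 3 higher were Cxcl1, Cxcl2 and Cxcl3, the ligands of CXCR2 that recruit neutrophils. Cxcl1 was 15.3 and 22.6 CPM with KLA and 188 and 173 with RGFP966 (log2 3.24 ± 0.094, adjusted p = 1.6e-39), Cxcl2 was 404 and 529 CPM with KLA and 1848 and 1686 with RGFP966 (log2 1.92 ± 0.11), and Cxcl3 was 15.2 and 22.3 CPM with KLA and 101 and 87.9 with RGFP966 (log2 2.32 ± 0.12). Against the DMSO_KLA libraries none of these was called, with 0.33, 0.40 and -0.27, so that their rise depends on which KLA libraries are the control.

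The 3 lower were Cxcl9, Cxcl10 and Cxcl11, the interferon-induced ligands of CXCR3. Cxcl10 was 6465 and 6049.5 CPM with KLA and 2482 and 2692 with the inhibitor (log2 -1.27 ± 0.054, adjusted p = 1.1e-34) and was also called lower against DMSO_KLA, at -1.02. Cxcl9 was 841 and 646 CPM with KLA and 138 and 148 with RGFP966 (log2 -2.38 ± 0.092) and Cxcl11 was 66.1 and 65.4 CPM with KLA and 26.6 and 30.1 with RGFP966 (log2 -1.21 ± 0.093). Against DMSO_KLA these 2 had -0.45 and -0.51, below the fold threshold. 

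Of 8 chemokine receptors, 4 were called higher and 2 lower, with a median of 0.56. Ccr2, the receptor of Ccl2 and Ccl12, was higher (3.82 and 3.79 CPM with KLA and 12.2 and 14.5 with RGFP966, log2 1.81 ± 0.19, 0.98 with the DMSO_KLA control). Ccr7, which leads dendritic cells to lymph nodes, was 1.53 and 1.57 CPM with KLA and 0.59 and 0.45 with RGFP966 (log2 -1.56 ± 0.56, -1.09 and not called with the DMSO_KLA control), a call lost in DESeq2 and without any 1 of these 4 libraries at -1.38 to -1.77. Cxcr4 was 1.63 and 1.65 with KLA and 0.811 and 0.6 with RGFP966 (log2 -1.20 ± 0.39), and lost its call without RGFP966_KLA replicate 2, at -1.01.

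**Figure D4:**
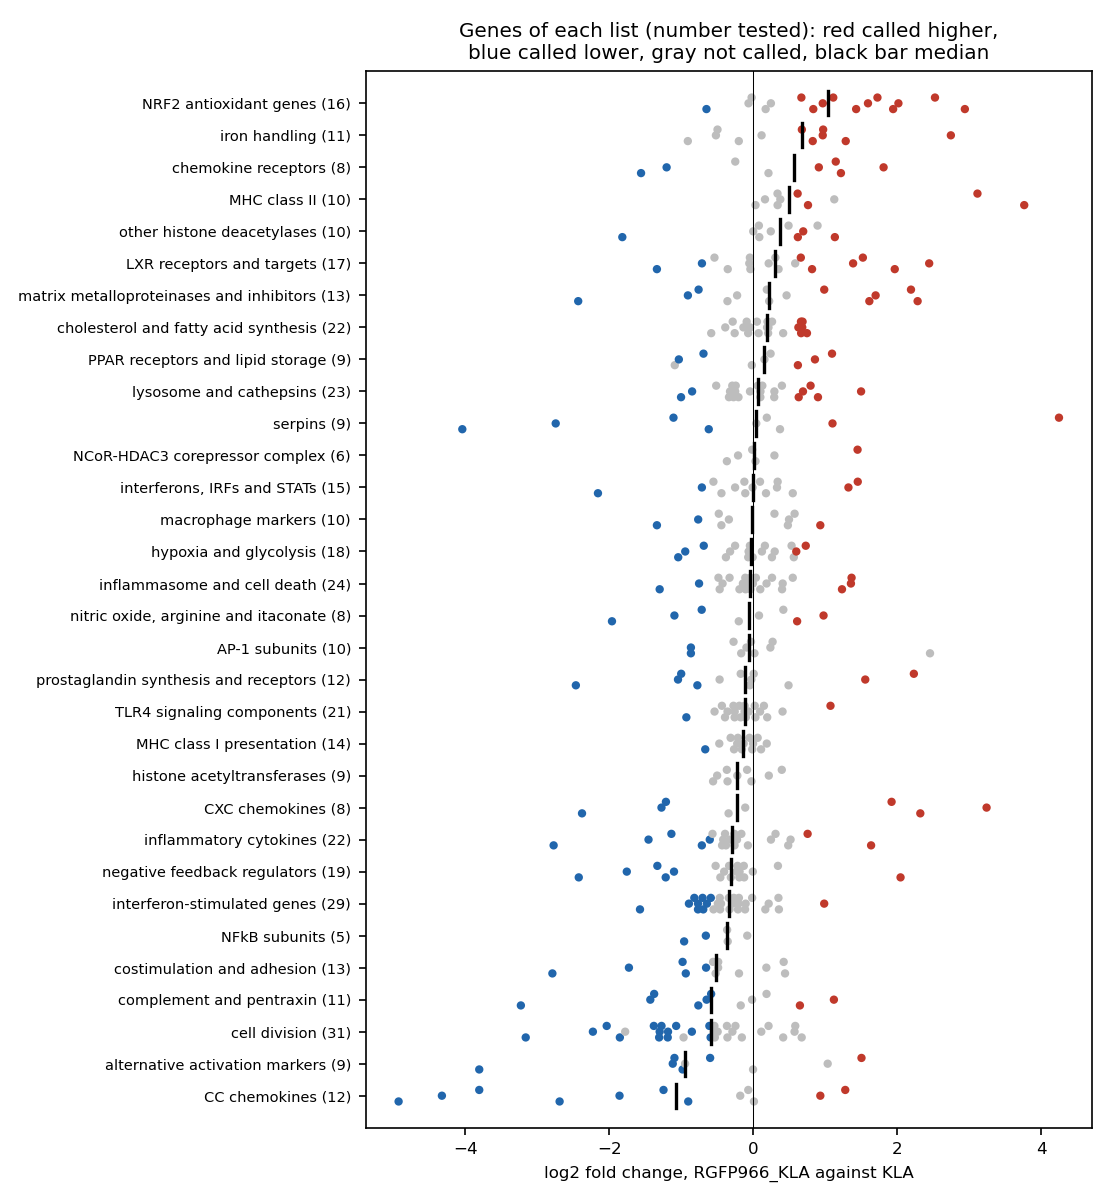
Log2 fold change of RGFP966_KLA against KLA for each tested gene of each gene list with 5 or more tested genes (points; number tested in parentheses), sorted by the list median (black bar), with red for genes called higher, blue for lower and gray for not called. The NRF2 antioxidant list has the highest median, 1.04, and the CC chemokines the lowest, -1.07.

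Interferon β and its targets were affected to different degrees. Ifnb1 had no count in Veh, 3.82 and 5.77 CPM with KLA and 0.811 and 1.35 with RGFP966 (log2 -2.16 ± 0.37, adjusted p = 6.0e-07), so the cytokine's mRNA was lower in both inhibitor libraries than in both KLA libraries. Of 29 interferon-stimulated genes tested, 9 were called lower and 1 higher, with a median of -0.34. Oasl1, a repressor of IRF7 translation, was 518 and 451 CPM with KLA and 168 and 157 with RGFP966 (log2 -1.57 ± 0.062, -2.75 with the DMSO_KLA control). Ifih1, the RNA sensor MDA5, was 2827 and 2699 CPM with KLA and 1521 and 1453 with RGFP966 (log2 -0.89 ± 0.054), though -0.24 and not called against DMSO_KLA.

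The other 19 interferon targets tested were not called. Rsad2, encoding viperin, was 14771 and 13686 CPM with KLA and 17979.9 and 18263 with RGFP966 (log2 0.35 ± 0.052), not called here and called higher at 0.91 against DMSO_KLA. Ifit2 was 7647 and 7150.3 CPM with KLA and 5945 and 6151 with RGFP966 (log2 -0.29 ± 0.053, 0.33 with the DMSO_KLA control). Ifit3b was the single one called higher, 176 and 159.8 CPM with KLA and 325 and 339 with RGFP966 (log2 0.98 ± 0.062). It shares much sequence with Ifit3, and the counting could divide reads between them. Of 15 interferon, IRF and STAT genes, 2 were called higher and 2 lower (13.3% each), beside 15.8% and 9.54% of all genes tested. Irf4, a lymphoid and macrophage IRF, was 0.478 and 0.577 CPM with KLA and 1.47 and 1.201 with RGFP966 (log2 1.32 ± 0.51), but lost its call in DESeq2 and without KLA replicate 1, KLA replicate 2 or RGFP966_KLA replicate 1, at 1.16 to 1.46, and was -0.17 against DMSO_KLA. Stat4 was 2.96 and 2.06 with KLA and 7.15 and 6.45 with RGFP966 (log2 1.45 ± 0.26). Stat2 was not called at -0.11 ± 0.056. Stat3 was called lower at -0.71 ± 0.059, but at -0.28 was not called against DMSO_KLA.

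To compare RGFP966 with a drug that acts on the interferon branch, the TBK1 inhibitor libraries were used, since TBK1 activates IRF3. In the study's assays this inhibitor also ended the HDAC3 phosphorylation that KLA induced, and it lowered HDAC3 activity. By that account the 2 drugs do not act on wholly separate targets. TBK1i_KLA and DMSO_KLA (2 wild-type libraries each, 6 h) were fitted jointly with the RGFP966 table, and the difference between the inhibitor effects was tested at 12092 genes. It was called above 0 at 2316 genes (19.2%) and below 0 at 1645 (13.6%). The effects were each measured against their own KLA control, on CPM scaled jointly, which differ a little from the values above. The tables carry different date stamps, so a difference between inhibitors and one between the KLA controls cannot be told apart.

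All 28 interferon-stimulated genes tested jointly were called lower with TBK1i, and all 28 had a difference called above 0. Their median log2 fold change was -6.62 with TBK1i and -0.38 with RGFP966. Rsad2 was 10587 and 10764 CPM in DMSO_KLA and 5.94 and 8.09 in TBK1i_KLA, against 17022 and 15525 in KLA and 19900.2 and 20250.1 in RGFP966_KLA (difference 10.88 ± 0.092 on the log2 scale, adjusted p = 5.9e-113). The largest differences among genes of at least 5 CPM were of this kind and included Ifit1bl1, Ifit3b and Cmpk2, at 12.13 ± 0.21, 10.64 ± 0.22 and 10.47 ± 0.12, and Cxcl11, which had no count in TBK1i_KLA. Ifnb1 likewise had no count in either TBK1i_KLA library, and 0.897 and 1.498 CPM in RGFP966_KLA. On this list the 2 inhibitors thus differed at every gene tested.

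Single genes of other lists differed in the opposite direction, although of the 12 CC chemokines tested jointly 8 had a difference above 0 and 3 below, and of the 23 inflammatory cytokines 9 and 5. Hif1a, the hypoxia-inducible transcription factor, was lower with RGFP966 (-0.99) and higher with TBK1i (1.18), a difference of -2.17 ± 0.073. Nfkb1 had -0.70 and 0.22, a difference of -0.93 ± 0.066. Il12b had -1.50 and 0.30 (difference -1.80 ± 0.083), and Ccl22 -4.37 and -1.30 (difference -3.07 ± 0.11). Each of these 4 differences was below 0. For Ppargc1b no difference was detected, at -2.54 and -2.55, with a difference of 0.011 ± 0.31 (adjusted p = 0.99). Ptgs2 had -0.82 and -1.15, a difference of 0.32 ± 0.088 that was below the fold threshold.

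Over all genes of the joint fit, 533 were called lower with both inhibitors. They made up 41.7% of the genes lower with RGFP966, beside 17.9% of all genes lower with TBK1i, and 24.6% of those lower with TBK1i, beside 10.6% of all genes lower with RGFP966. Of the genes called higher, 500 were shared, 29.6% of the RGFP966 list beside 14.5% of all genes higher with TBK1i, and 28.4% of the TBK1i list beside 14% of all genes higher with RGFP966. Another 129 of the 1277 genes lower with RGFP966 were higher with TBK1i, a smaller share than the 14.5% of all genes. Likewise 207 of the 1692 genes higher with RGFP966 were lower with TBK1i, a smaller share than the 17.9% of all genes. Cell division genes had 13 of 30 differences called below 0 and 5 above, and costimulation and adhesion genes 3 of 13 below 0 and 4 above.

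**Figure D5:**
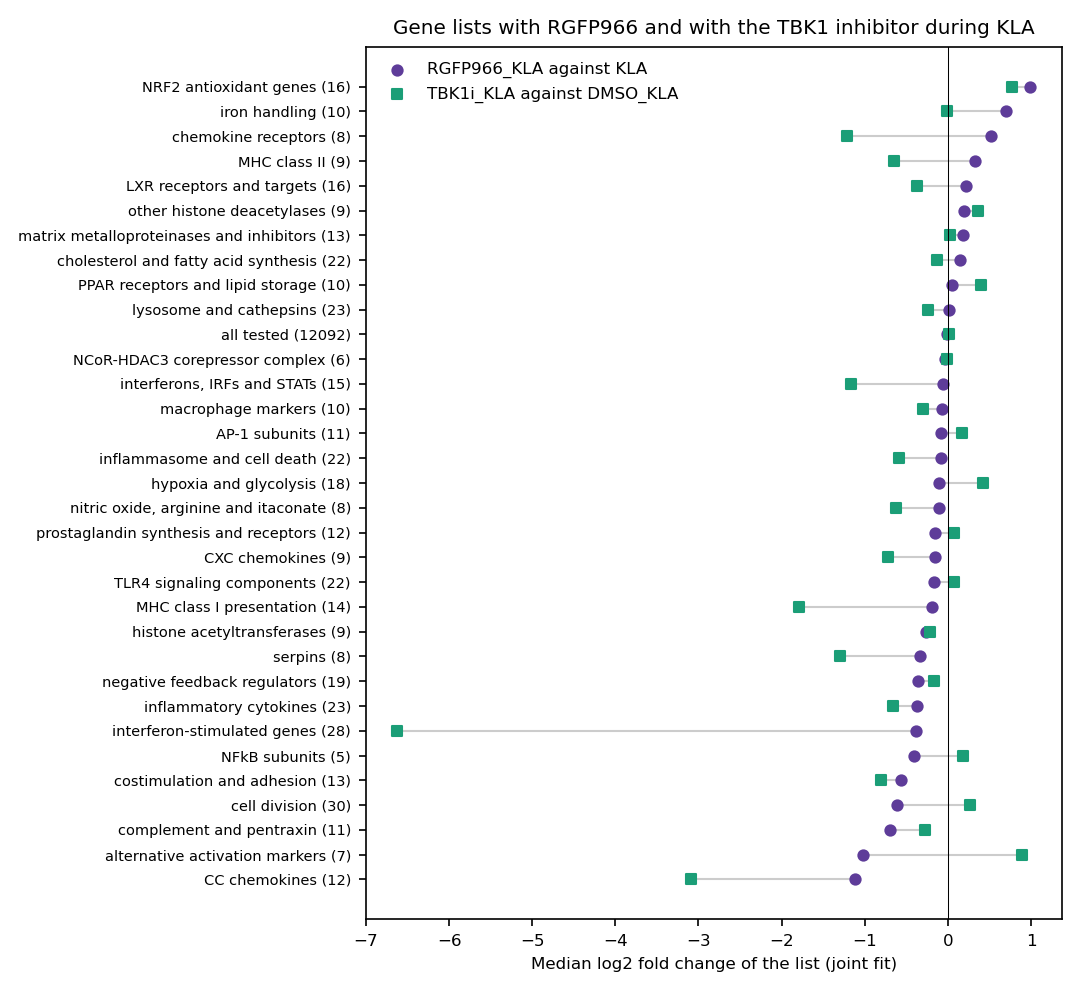
Median log2 fold change of each gene list (number tested in parentheses) with RGFP966 during KLA (circles) and with the TBK1 inhibitor during KLA (squares), from the joint fit, each against its own KLA libraries. The interferon-stimulated genes stand at -0.38 with RGFP966 and -6.62 with TBK1i, and the NRF2 antioxidant genes at 0.99 and 0.77.

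Most antioxidant genes controlled by NRF2 rose. Of 16 tested, 11 were called higher and 1 lower, and their median of 1.04 was the highest among lists with 5 or more tested genes. NRF2 is released from its inhibitor KEAP1 by oxidants and electrophiles and then drives glutathione and thioredoxin genes. Srxn1, sulfiredoxin, was 147 and 147 CPM in Veh, 77.9 and 100.5 with KLA and 531 and 497 with RGFP966 (log2 2.52 ± 0.07, 1.93 with the DMSO_KLA control, adjusted p = 7.5e-38). Prdx1, a peroxiredoxin, was 945 and 999 CPM in Veh, 1572 and 1678 with KLA and 6124 and 6358 with RGFP966 (log2 1.94 ± 0.055).

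Gclm, the modifier subunit of the enzyme that starts glutathione synthesis, was 57.1 and 56.7 CPM in Veh, 40.5 and 47.5 with KLA and 184 and 173 with RGFP966 (log2 2.01 ± 0.075). Nqo1, a quinone reductase and standard NRF2 target, was 1.72 and 0.494 CPM with KLA and 8.48 and 7.95 with RGFP966 (log2 2.94 ± 0.31). For these 4 genes both inhibitor libraries were above every KLA and Veh library, and each was also called higher against DMSO_KLA. Sod2, the mitochondrial superoxide dismutase that NFκB induces, was 1622 and 1695 CPM with KLA and 1622 and 1642 with RGFP966 (log2 -0.024 ± 0.054, 0.11 with the DMSO_KLA control) and not called.

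Of 11 iron handling genes tested, 6 were called higher and none lower (median 0.67). Slc40a1, the iron exporter ferroportin, was 252 and 270.0 CPM in Veh, 4.397 and 6.84 with KLA and 36.3 and 40.1 with RGFP966, a partial return (log2 2.74 ± 0.13, 3.44 with the DMSO_KLA control, adjusted p = 3.3e-32). Hmox1, heme oxygenase 1 and itself an NRF2 target, was 317 and 357 CPM with KLA and 659 and 656 with RGFP966 (log2 0.96 ± 0.058). Lcn2, which binds bacterial siderophores, was 65.1 and 73.3 CPM with KLA and 160.2 and 177 with RGFP966 (log2 1.28 ± 0.072).

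Tfrc, the transferrin receptor, was 119.8 and 129.7 CPM in Veh, 51.6 and 53.7 with KLA and 104 and 102 with RGFP966 (log2 0.97 ± 0.074), again between the KLA and the Veh level. Fth1, ferritin heavy chain, was 16556 and 16673 CPM with KLA and 26222 and 26802 with RGFP966 (log2 0.67 ± 0.052), whereas Ftl1, the light chain, was not called at 0.12 ± 0.053, -0.052 with the DMSO_KLA control. Both ferritin genes have processed pseudogenes, and reads shared with those copies make their counts less certain.

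Among effector enzymes, Nos2, the inducible nitric oxide synthase, was 0.141 and 0.565 CPM in Veh, 1345 and 1000.3 with KLA and 297 and 305 with RGFP966 (log2 -1.96 ± 0.18, adjusted p = 9.8e-04), and -0.76 against DMSO_KLA, still called. Slc7a2, the arginine transporter that feeds it, was 1092 and 1096 CPM with KLA and 686 and 646 with RGFP966 (log2 -0.72 ± 0.055). Acod1, which makes itaconate, was 11362 and 11376 CPM with KLA and 12254 and 11771 with RGFP966 (log2 0.079 ± 0.052) and not called. Odc1, which starts polyamine synthesis, was 25.7 and 23.5 CPM with KLA and 10.5 and 12.5 with RGFP966 (log2 -1.09 ± 0.13), and the mitochondrial arginase Arg2 was 1.05 and 1.24 with KLA and 2.51 and 2.03 with RGFP966 (log2 0.97 ± 0.42), a call lost in DESeq2, in the fit with the replicate block and without any 1 of the 6 libraries at 0.81 to 1.12. Of the 8 genes of this list, 3 were called lower and 2 higher.

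Of 12 prostaglandin genes, 4 were called lower, Ptgs2 among them, and 2 higher. Hpgd, which inactivates prostaglandins, was 1.15 and 0.989 CPM with KLA and 0.0737 and 0.3 with RGFP966 (log2 -2.46 ± 0.62, -0.63 and not called with the DMSO_KLA control). Ptger2, a receptor of prostaglandin E, was 0.478 and 1.895 with KLA and 4.35 and 2.93 with RGFP966 (log2 1.55 ± 0.35, 0.29 and not called with the DMSO_KLA control). Ptgir, the prostacyclin receptor, was 5.93 and 5.36 CPM with KLA and 28.1 and 24.7 with RGFP966 (log2 2.23 ± 0.15, 1.26 with the DMSO_KLA control). Hpgds, the prostaglandin D synthase, was 83.9 and 81.7 CPM with KLA and 38.5 and 41.7 with RGFP966 (log2 -1.05 ± 0.076), although against DMSO_KLA it was -0.025 and not called. Pla2g4a, the phospholipase that releases arachidonic acid, was not called at -0.47 ± 0.062, 0.022 with the DMSO_KLA control.

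Of 13 tested matrix metalloproteinases and inhibitors, 5 were called higher and 3 lower (median 0.22), and against DMSO_KLA 5 were lower. Mmp13, a collagenase, was 16.4 and 16.6 CPM in Veh, 3827 and 3794 with KLA and 18892 and 18141 with RGFP966 (log2 2.28 ± 0.054, adjusted p = 8.7e-52). Mmp12, the macrophage elastase, was 3401 and 3466 CPM in Veh, 3012 and 3156 with KLA and 10265 and 9747 with RGFP966 (log2 1.70 ± 0.054). Both were also called higher against DMSO_KLA, at 3.11 and 2.05.

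Mmp9, a gelatinase, was 55.7 and 57.7 CPM with KLA and 274 and 244 with RGFP966 (log2 2.19 ± 0.071), but stood at -0.18 against DMSO_KLA. Mmp25 went down, from 42.2 and 39.4 to 6.26 and 8.85 (log2 -2.43 ± 0.14). Serpins, inhibitors of proteases, had 2 called higher and 4 lower of 9 (2 lower without KLA replicate 1). Serpinb9b was 3.001 and 3.65 CPM in Veh, 3.15 and 3.46 with KLA and 63.7 and 62.3 with RGFP966 (log2 4.24 ± 0.14, adjusted p = 5.3e-42).

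Serpina3g and Serpina3f, 2 members of a gene cluster of close copies whose reads may be divided between them, went the other way. Serpina3g was 277 and 216 CPM with KLA and 14.96 and 14.9 with RGFP966 (log2 -4.04 ± 0.095), and -2.61 against DMSO_KLA. Serpina3f was 201 and 182 CPM with KLA and 26.7 and 30.5 with RGFP966 (log2 -2.74 ± 0.081), and -1.45 against DMSO_KLA. Among 11 complement and pentraxin genes, 6 were called lower and 2 higher (median -0.59), with 3 lower against DMSO_KLA and 3 when only genes averaging at least 5 CPM were tested. C5ar1, the C5a receptor, was 353 and 354 CPM with KLA and 141 and 131 with RGFP966 (log2 -1.38 ± 0.06), Ptx3 was 15.1 and 16.3 CPM with KLA and 1.25 and 2.101 with RGFP966 (log2 -3.23 ± 0.24), and C3 was 2306 and 2088 CPM with KLA and 4946 and 4594 with RGFP966 (log2 1.12 ± 0.056).

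Of 13 costimulation and adhesion genes tested, 5 were called lower and none higher (median -0.52), with 3 lower when only genes averaging at least 5 CPM were tested. Cd40, the receptor for T cell help, was 2.53 and 4.42 CPM in Veh, 2555 and 2507 with KLA and 1301 and 1343 with RGFP966 (log2 -0.94 ± 0.057, adjusted p = 9.5e-25). Cd69 was 1923 and 1779 CPM with KLA and 551 and 567 with RGFP966 (log2 -1.73 ± 0.057), and -0.83 against DMSO_KLA. Cd274, encoding PD-L1, was not called at -0.56 ± 0.053, passed the fold threshold in DESeq2 at -0.63 and without KLA replicate 2 at -0.62, and was 0.29 against DMSO_KLA, not called. Pdcd1lg2, encoding PD-L2, was 3.06 and 3.54 CPM with KLA and 1.33 and 2.03 with RGFP966 (log2 -0.98 ± 0.35), but lost its call in DESeq2 and without KLA replicate 2 (-0.88) or RGFP966_KLA replicate 1 (-0.71) and was 0.35 against DMSO_KLA.

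MHC class II genes had 4 of 10 called higher and none lower (median 0.50), with 2 higher in DESeq2, 2 without KLA replicate 2 and 2 when only genes averaging at least 5 CPM were tested. Ciita, the transcription factor that switches on the class, was 26.02 and 29.2 CPM in Veh, 27.6 and 23.7 with KLA and 49.4 and 37.2 with RGFP966 (log2 0.76 ± 0.11, 1.74 with the DMSO_KLA control), and lost its call without RGFP966_KLA replicate 1, at 0.54. H2-Ob, a chaperone subunit that modulates peptide loading, was 0.478 and 0.33 CPM with KLA and 4.57 and 6.45 with RGFP966 (log2 3.76 ± 0.44, 3.10 with the DMSO_KLA control). H2-DMb2, of the peptide loading factor H2-DM, was 0.0956 and 0 CPM with KLA and 0.295 and 0.6 with RGFP966 (log2 3.11 ± 1.26, 5.69 with the DMSO_KLA control), a call that held in the leave-one-out fits only without RGFP966_KLA replicate 1 and otherwise was lost, also in DESeq2, at 2.12 to 5.86. H2-Aa and Cd74 were not called at 0.38 ± 0.056 and 0.34 ± 0.053, and were higher by 3.04 and 2.41 against DMSO_KLA, where 9 genes of the list were called. Among 14 class I presentation genes, Psmb10, a subunit of the immunoproteasome, was called lower (363 and 358 CPM with KLA and 220.3 and 234 with RGFP966, log2 -0.67 ± 0.058) and none higher.

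Of 17 LXR receptors and targets, 6 were called higher and 2 lower (median 0.31), with 2 called higher and a median of -0.022 against DMSO_KLA. Nr1d1, the clock repressor REV-ERBα, was 0.669 and 0.659 CPM with KLA and 3.98 and 3.301 with RGFP966 (log2 2.44 ± 0.39), but -0.85 against DMSO_KLA. Scd1, a fatty acid desaturase, was 2.58 and 2.55 CPM with KLA and 10.9 and 9.15 with RGFP966 (log2 1.96 ± 0.23), but -0.13 against DMSO_KLA. Scd2, a second desaturase, was 52.6 and 50.9 CPM in Veh, 18.2 and 19.7 with KLA and 57.5 and 51.4 with RGFP966 (log2 1.52 ± 0.097), but -0.0058 against DMSO_KLA. Mertk, a receptor for apoptotic cells, was 285 and 241 CPM with KLA and 105 and 103 with RGFP966 (log2 -1.34 ± 0.065), and 0.32 against DMSO_KLA. The calls of these 4 genes thus depend on the control. Against DMSO_KLA only Nr1d1 was called the other way, and Scd1, Scd2 and Mertk were not called. Lpl was not called at 0.31 ± 0.054, and Apoe was not called at 0.21 ± 0.055, 0.66 and called with the DMSO_KLA control.

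Of 22 cholesterol and fatty acid synthesis genes, 6 were called higher and none lower (median 0.19), but 3 in DESeq2 and 3 without KLA replicate 1, KLA replicate 2 or RGFP966_KLA replicate 1. Against DMSO_KLA none was higher and 6 were lower, with a median of -0.30. Of 9 genes of PPAR receptors and lipid storage, 3 were called higher and 2 lower. Cd36, the scavenger receptor for oxidized lipids, was 2633 and 2777 CPM in Veh, 1687 and 1777 with KLA and 3149 and 3120.0 with RGFP966 (log2 0.86 ± 0.054, adjusted p = 1.5e-24), and 1.66 against DMSO_KLA. Cpt1a, which admits fatty acids to mitochondria, was 138 and 139 CPM in Veh, 73.99 and 68.98 with KLA and 154 and 151 with RGFP966 (log2 1.09 ± 0.068). Fabp5 was lower, 139 and 138 CPM with KLA and 65.9 and 69.7 with RGFP966 (log2 -1.03 ± 0.067), though not called against DMSO_KLA at -0.55.

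Genes of alternative activation had 5 of 9 called lower and 1 higher (median -0.95), and 2 called lower when only genes averaging at least 5 CPM were tested and 3 against DMSO_KLA. Cd163, a scavenger receptor for hemoglobin, was the one higher, 0.287 and 0.33 CPM with KLA and 0.884 and 0.9 with RGFP966 (log2 1.50 ± 0.6), a call lost in DESeq2 and without any 1 of these 4 libraries at 1.41 to 1.598. Il4ra, the interleukin 4 receptor, was 528 and 442 CPM with KLA and 215 and 239 with RGFP966 (log2 -1.09 ± 0.062), but -0.23 and not called against DMSO_KLA. Klf4 was 13.0002 and 10.2 CPM with KLA and 5.68 and 4.95 with RGFP966 (log2 -1.12 ± 0.19). Of 18 glycolysis and hypoxia genes, 3 were called lower (16.7%) and 2 higher (11.1%), beside 9.54% and 15.8% of all genes tested. Hif1a was 81.5 and 81.3 CPM in Veh, 382 and 367 with KLA and 197 and 192 with RGFP966 (log2 -0.94 ± 0.058), and -0.45 and not called against DMSO_KLA. Pfkfb3, which raises glycolytic flux, was 710.2 and 639.7 CPM with KLA and 399 and 439 with RGFP966 (log2 -0.69 ± 0.058), and 0.38 against DMSO_KLA. Pdk1, which restrains entry of pyruvate into mitochondria, was 27.5 and 28.3 CPM with KLA and 12.7 and 14.5 with RGFP966 (log2 -1.04 ± 0.11).

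Of 31 cell division genes tested, 14 were called lower and none higher (median -0.59), with 9 lower without RGFP966_KLA replicate 1 and 7 when only genes averaging at least 5 CPM were tested. Ccnd2, a cyclin of the G1 phase, was 0.985 and 1.59 CPM in Veh, 555 and 519 with KLA and 212 and 200.1 with RGFP966 (log2 -1.38 ± 0.06, -2.07 with the DMSO_KLA control, adjusted p = 2.9e-34). Mcm5, part of the replicative helicase, was 17.5 and 16.6 CPM in Veh, 6.88 and 5.44 with KLA and 1.77 and 1.201 with RGFP966 (log2 -2.03 ± 0.26), and Top2a, topoisomerase 2α, 36.7 and 40.8 CPM in Veh, 3.92 and 5.44 with KLA and 1.25 and 0.75 with RGFP966 (log2 -2.23 ± 0.29), so for these KLA and RGFP966 moved the level the same way. Cdkn1a, the cell cycle inhibitor p21, was not called at -0.29 ± 0.054, -0.60 and called with the DMSO_KLA control.

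Of 23 lysosomal genes, 5 were called higher (21.7%) and 2 lower (8.7%), beside 15.8% and 9.54% of all genes tested (median 0.062). Ctsl, the protease cathepsin L, was 623 and 628 CPM with KLA and 1763 and 1766 with RGFP966 (log2 1.50 ± 0.055). Atp6v0d2, a proton pump subunit, was called lower at -0.85 ± 0.061 and stood at 0.055 against DMSO_KLA. Of 24 inflammasome and death genes, 3 were called higher (12.5%) and 2 lower (8.33%), near the 15.8% and 9.54% of all genes tested. Bcl2, a survival factor, was 2.68 and 2.55 CPM with KLA and 6.12 and 7.28 with RGFP966 (log2 1.36 ± 0.24), and Nlrc4, an inflammasome sensor, 12.9 and 14.5 with KLA and 30.2 and 34.4 with RGFP966 (log2 1.23 ± 0.12, 2.05 with the DMSO_KLA control). Ripk3, the kinase of necroptosis, was 5.26 and 5.77 CPM with KLA and 13.7 and 14.8 with RGFP966 (log2 1.36 ± 0.17, 0.72 with the DMSO_KLA control).

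Markers of macrophages were present throughout. Adgre1, which encodes F4/80, was 1295 and 1404 CPM in Veh, 2844 and 3078 with KLA and 3623 and 3637 with RGFP966, and the summed CPM of the 10 macrophage markers was 12500 to 12600 in Veh, 14300 to 14500 in KLA and 17400 to 17700 in RGFP966_KLA. Of the 10, 1 was called higher, Csf1r, the receptor for M-CSF (1023 and 988 CPM with KLA and 1992 and 1841 with RGFP966, log2 0.93 ± 0.055), and 2 lower, Mertk among them. Fewer or more cells of a type and less or more RNA per cell cannot be told apart in bulk libraries. None of the fibroblast, B cell or mast cell and basophil markers passed the filter, and their summed CPM was at most 2.29 in any library. Of 7 neutrophil and granulocyte markers 2 were tested, S100a8 rising from 4.302 and 4.45 to 20.1 and 21.5 CPM (log2 2.24 ± 0.18) while S100a9 was not called (0.0956 and 1.73 CPM with KLA and 0.516 and 0.675 with RGFP966, log2 -0.69 ± 0.63), with -1.53 and a call without KLA replicate 1 and 2.53 and no call without KLA replicate 2, and Mpo, Elane and Ly6g did not pass the filter. Of the T and NK cell markers only Klrb1c passed, at 0.0956 and 0.0824 CPM with KLA and 1.25 and 1.501 with RGFP966, and no CD3 chain did. The part of other cell types in these results was not tested.

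The genes with the greatest changes among those reaching 5 CPM came from several classes. The 10 called lower with the lowest log2 fold change were Fst, Ccl8, Ccl22, Lrrc4, Plagl1, Gfi1, Nr4a3, Serpina3g, Shisa3 and Dnase1l3. Fst, encoding the activin antagonist follistatin, had no count in either RGFP966_KLA library and 6.5001 and 3.96 CPM with KLA, which is at least 23.4-fold lower against a floor of 3 counts per library. Gfi1, a zinc finger repressor of inflammatory genes, was 33.3 and 33.5 with KLA and 1.62 and 2.25 with RGFP966 (log2 -4.10 ± 0.19). Nr4a3, an orphan nuclear receptor, was 8.99 and 9.64 CPM with KLA and 0.737 and 0.375 with RGFP966 (log2 -4.04 ± 0.34), Plagl1 17.9 and 12.3 CPM with KLA and 0.884 and 0.75 with RGFP966 (log2 -4.18 ± 0.28, -5.37 with the DMSO_KLA control) and Lrrc4 6.596 and 6.51 CPM with KLA and 0.442 and 0.225 with RGFP966 (log2 -4.26 ± 0.43). Shisa3 was 308 and 386 CPM with KLA and 28.2 and 27.8 with RGFP966 (log2 -3.63 ± 0.082) and Dnase1l3, a secreted nuclease of macrophages, 11.5 and 7.99 CPM with KLA and 0.59 and 1.35 with RGFP966 (log2 -3.31 ± 0.31, -1.51 with the DMSO_KLA control). All 10 lay lower in both RGFP966_KLA libraries than in both KLA libraries. Fst had no result with the DMSO_KLA control.

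The 10 called higher with the highest log2 fold change were Wnk2, Akap3, Serpinb9b, Piwil2, H2-Ob, F11r, Fut7, Rhob, Mrgpre and Uchl1. Piwil2 and Akap3 are known for germ line roles and Uchl1 for its abundance in neurons. Wnk2 and Fut7 had no result with the DMSO_KLA control. Akap3 was 1.73 and 2.78 CPM in Veh, 0.287 and 0.165 with KLA and 6.19 and 4.05 with RGFP966 (log2 4.48 ± 0.49, 2.18 with the DMSO_KLA control), and Piwil2 0.609 and 0.257 CPM in Veh, 0.765 and 1.07 with KLA and 14.7 and 12.9 with RGFP966 (log2 3.88 ± 0.28, 3.28 with the DMSO_KLA control). Uchl1 was 4.17 and 3.7004 CPM in Veh, 4.68 and 6.26 with KLA and 52.8 and 54.9 with RGFP966 (log2 3.28 ± 0.13, 1.64 with the DMSO_KLA control). Rhob, a small GTPase, was 146 and 136 CPM in Veh, 36.1 and 38.6 with KLA and 409 and 362 with RGFP966 (log2 3.37 ± 0.073, 1.70 with the DMSO_KLA control), and F11r, the junctional adhesion molecule JAM-A, was 0.0469 and 0.0514 CPM in Veh, 2.77 and 3.296 with KLA and 39.2 and 39.99 with RGFP966 (log2 3.69 ± 0.16, 2.56 with the DMSO_KLA control). Wnk2 was 0.0956 and 0.33 CPM with KLA and 9.36 and 6.38 with RGFP966 (log2 5.10 ± 0.45), Fut7 0.956 and 0.577 CPM with KLA and 7.22 and 10.1 with RGFP966 (log2 3.51 ± 0.31) and Mrgpre 1.15 and 0.906 CPM with KLA and 11.5 and 8.704 with RGFP966 (log2 3.30 ± 0.26).

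Some genes were near silence without the inhibitor. In all, 139 genes called higher had 3 counts or fewer in each KLA library, and 10 of these also in each Veh library, while 26 genes called lower had 3 counts or fewer in each RGFP966_KLA library. The 10 passed the low-count filter only through their RGFP966_KLA counts, so they could be called in no other direction. How many tested genes were this low in each group was not counted, so 139 and 26 do not compare the directions. The 5 highest of the 10 were Rtn4rl2, Dnmt3l, Rasgrf1, Lama5 and Sult4a1. Rtn4rl2 was 3.17 and 2.401 CPM with RGFP966, at least 10.4-fold higher than 3 counts per KLA library, and Dnmt3l, a cofactor of DNA methyltransferases known from germ cells, was 2.36 and 2.48, at least 9.05-fold higher. Lama5 and Sult4a1 were at least 4.72-fold and 4.59-fold higher. Against DMSO_KLA the log2 fold change was 1.54 for Dnmt3l and 1.51 for Lama5, less than these bounds, and 4.72 for Rtn4rl2. Rasgrf1 was at least 4.88-fold higher, but at -0.21 was not called against DMSO_KLA.

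Promoters of 3 of these genes are shown, 1 of a chemokine that fell, 1 of a serpin that rose and the only one with a motif match among the 16 promoters found. RefSeq promoters of build GRCm38.p6 (mm10) were looked up for the 20 genes with the greatest changes, and each sequence is the 250 bases upstream of the start site, 5′ to 3′ on the gene's strand, in lower case with a motif match in capitals. The motifs searched on both strands were GGGANTTTC (κB-like), GAAANNGAA (ISRE-like) and TGANTCA (AP-1-like, which reads the same on both strands). They occur in 0.841%, 6.51% and 4.17% of 9041 promoters of the same length that were matched to tested genes. Since only 74.1% of the tested genes had a promoter, no comparison of motif shares between called and other genes was made.
Ccl22 (chr8:94745434-94745683, plus strand, log2 -4.32 with RGFP966, no match): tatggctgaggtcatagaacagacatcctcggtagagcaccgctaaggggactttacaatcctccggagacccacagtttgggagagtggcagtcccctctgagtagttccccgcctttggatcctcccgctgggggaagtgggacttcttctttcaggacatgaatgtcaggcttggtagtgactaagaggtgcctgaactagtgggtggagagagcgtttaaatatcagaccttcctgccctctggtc
Serpinb9b (chr13:33027164-33027413, plus strand, log2 4.24 with RGFP966, no match): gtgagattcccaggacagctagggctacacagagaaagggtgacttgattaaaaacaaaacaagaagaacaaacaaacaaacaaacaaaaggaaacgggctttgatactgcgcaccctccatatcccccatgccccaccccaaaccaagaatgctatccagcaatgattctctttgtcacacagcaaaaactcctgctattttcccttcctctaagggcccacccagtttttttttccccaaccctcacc
F11r (chr1:171437311-171437560, plus strand, log2 3.69 with RGFP966, AP-1-like match at -109 from the start site): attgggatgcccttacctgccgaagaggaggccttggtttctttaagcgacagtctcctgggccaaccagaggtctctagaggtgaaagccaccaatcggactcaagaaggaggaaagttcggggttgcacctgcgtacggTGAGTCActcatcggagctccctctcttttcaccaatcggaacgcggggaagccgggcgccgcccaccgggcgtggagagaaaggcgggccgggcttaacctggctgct
A match is a run of letters and not a measured binding site, and the absence of one says only that these letters are not in this window.

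NCoR brings HDAC3 to chromatin, and the inhibitor effect was therefore compared with that of NCoR deletion. NKO_KLA libraries come from BMDMs with NCoR flox/flox alleles deleted by LysMCre, a Cre driven by the lysozyme promoter in myeloid cells, and WT_KLA from NCoR flox/flox cells without the Cre, 2 libraries each at 6 h of KLA. They were fitted jointly with the RGFP966 table at 12272 genes. The difference of the effects was called above 0 at 2981 genes (24.3%) and below 0 at 2444 (19.9%). The 5 genes with the greatest differences included Fst, Gm5148, Xist and Tsix, the latter 3 at 0 in both NKO_KLA libraries, and Ddx3y, which was at 17.6 to 29.3 CPM there and at most 0.105 in the others. The NKO_KLA libraries thus differ from the other KLA libraries here in the sex-linked genes Xist, Tsix and Ddx3y as well as in genotype. They also carry a date stamp of another year than WT_KLA, so that genotype, sex and date stamp cannot be told apart.

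With that limit, 259 genes were called lower both with RGFP966 and in NKO, which is 23.1% of the genes lower with RGFP966, beside 20.9% of all genes lower in NKO, and 10.1% of those lower in NKO, beside 9.12% of all genes lower with RGFP966. More genes, 318 of the 1119 lower with RGFP966, were higher in NKO, beside 20.4% of all genes higher in NKO. Of the genes called higher 407 were shared, 21.9% of the RGFP966 list beside 20.4% of all genes higher in NKO, and 16.3% of the NKO list beside 15.1% of all genes higher with RGFP966. Another 391 of the 1856 genes higher with RGFP966 were lower in NKO, close to the 20.9% of all genes lower in NKO. Ptgs2 was lower in both, with log2 fold changes of -0.77 with RGFP966 and -2.21 in NKO (difference 1.44 ± 0.17, adjusted p = 3.7e-05). Il12a had -0.71 and -2.13 (difference 1.42 ± 0.25), and Cp -0.51 and -2.63 (difference 2.12 ± 0.16), so that all 3 were lower in NKO by more. Il1b was 0.25 with RGFP966 and -2.66 in NKO (difference 2.91 ± 0.29).

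The gene lists differed too. Of 16 NRF2 antioxidant genes 13 had a difference called above 0 and 2 below, with a median of 1.04 with RGFP966 and -0.64 in NKO. Prdx1 was 1289.8 and 1200.3 CPM in WT_KLA and 1355 and 1269 in NKO_KLA (difference 1.87 ± 0.087, adjusted p = 2.2e-24). Among MHC class II genes 9 of 10 differences were above 0, with medians of 0.50 and -1.44. Of 27 cell division genes 15 differences were below 0 and 2 above, with medians of -0.59 and 0.76. Ppargc1b was lower with RGFP966 at -2.49 and higher in NKO at 0.66 (difference -3.15 ± 0.26).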

How the data were processed

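RNA from 6 h BMDM cultures was sequenced with poly(A) selection, and the authors mapped reads to mm10 with STAR and counted them per gene with HOMER, at versions not given in the sources used here, so that the deposited values are raw read counts per gene, not normalized. The processing notes also name DESeq2. The study's methods describe the counted exon reads as strand-specific. Reads of near-identical copies of a gene may still not be told apart. Counts in genes made up 84.3% to 86.2% of the mapped read totals that the file headers give for the 6 libraries.

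From these counts, edgeR 4.0.16 in R 4.3.3 was run with TMM scaling, its filterByExpr function and the robust quasi-likelihood model, fitted to all 6 libraries, with Benjamini-Hochberg adjustment over 12196 genes and calls where the adjusted p was under 0.05 and the change exceeded 1.5-fold. The common biological coefficient of variation was 0.0433. The response to KLA was taken from a separate fit of the DMSO table (DMSO_Veh, DMSO_KLA and TBK1i_KLA). The differences from TBK1i and NKO were tested as contrasts of effects in joint fits on shared transcripts.

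The experiment and the gene lists were chosen with earlier results of these data known. Genes were named by rule: all of the corepressor, PGC1 and TLR4 lists could be named, with Ptgs2, Cp and Il12a, the 10 greatest changes each way among genes averaging at least 5 CPM in a group, up to 4 called members and the 2 most abundant of each other list, the 5 most abundant near-silent genes, and the 5 greatest differences of each joint fit. Tnf, Il6, Ebi3, Ccl6, Ccl9 and S100a9 fall outside it.

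The test was checked on simulated counts for RGFP966_KLA against KLA: 88 of 100 genes changed 2-fold and 97 of 100 changed 4-fold were called, with 1 false call among 11771 unchanged genes. Counts were drawn with the trend of spread by abundance fitted to these libraries. No gene was given a larger spread of its own, so false calls among noisier genes are not measured. Only the genes changed 2-fold or 4-fold, averaging above 1 CPM, were altered, as many up as down. In the data 25.4% of genes were called. No shift between controls or date stamps was simulated, so false calls from such shifts are not measured. Alternatives were DESeq2 1.42.0, its size factors, other filters and thresholds, the 4 compared libraries alone, a replicate block, leaving out each library, genes of at least 250 bp and the DMSO_KLA control. DESeq2 gave no adjusted p for 3162 of 16307 genes. A floor of 3 counts covers counting error only. The other tables of the series were not used here, and some named genes are not reported here.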

Additional observations from a re-analysis of the deposited data

How the results depend on the processing

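Leaving out each library in turn gave 1752 to 1916 genes higher and 1083 to 1191 lower with RGFP966, 3394 to 3453 and 3736 to 3959 for KLA against Veh, and 3372 to 3481 and 3011 to 3242 for RGFP966_KLA against Veh. Among KLA-induced genes it gave 209 to 236 higher and 622 to 681 lower, and among KLA-lowered genes 975 to 1122 higher and 194 to 212 lower. KLA-induced genes called higher numbered 152 with at least 5 CPM and 149 in DESeq2, and KLA-lowered genes called higher 735 in DESeq2. Without a fold threshold, 3213 genes were higher and 3001 lower, with 2113 lower and 789 higher among KLA-induced and 1819 higher and 531 lower among KLA-lowered genes. Above a 2-fold change these were 1081, 457, 221, 85, 587 and 96. DESeq2's size factors in edgeR gave 1702 higher and 1388 lower (55.1% higher), a shift of -0.066 in log2. The 4 compared libraries alone gave 60.9% higher.

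With DMSO_KLA as control the sign of 28 named genes reversed. Of these, 17 were called with at least 1 of the controls: Scd2 (-0.0058), Scd1 (-0.13), Nr1d1 (-0.85), Cd14 (-0.62), Mertk (0.32), Cxcl3 (-0.27), Hdac5 (-0.17), Hdac6 (-0.072), Pdcd1lg2 (0.35), Cp (0.95), Csf2 (-2.61), Irf4 (-0.17), Pfkfb3 (0.38), Atp6v0d2 (0.055), Il1rn (1.02), Rasgrf1 (-0.21) and Mmp9 (-0.18). The other 11 were called with neither: Cd274 (0.29), Ifit2 (0.33), Ccl3 (0.21), Hdac3 (0.19), Tnfaip3 (0.14), Sod2 (0.11), Ncor1 (0.033), Pla2g4a (0.022), Tnf (-0.0087), Ftl1 (-0.052) and Il1b (-0.12). Another 15 lost their call and 8 gained one. The cause was not tested. DESeq2 ended the call of 9 named genes (Ccr7, Hdac5, Hdac6, Pdcd1lg2, Csf2, H2-DMb2, Irf4, Cd163 and Arg2). Uncalled genes near 0 turned sign elsewhere: Ccl5 (-0.057) and Tlr4 (-0.036) with DESeq2's size factors, Ccl5 (-0.059) and Tlr4 (-0.038) in DESeq2, Sod2 (0.0048) and Hdac3 (0.013) with at least 5 CPM, and Ccl5 (-0.00074) in the 4 compared libraries. Leaving out a library gave -0.099 to 0.066 for Hdac3, -0.023 to 0.026 for Ccl5, -0.0024 to 0.049 for Tlr4, -0.091 to 0.0021 for Esrra and -1.53 to 2.53 for S100a9. With the replicate number as a block, 1922 genes were higher and 1166 lower, and Arg2 alone of the named genes lost its call. Deviations of same-numbered libraries correlated by 0.017 to 0.030, which cannot tell whether they shared a mouse, culture or preparation. With 2 libraries per group, genes near 3 counts per library could not be resolved.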
